A study of Sus scrofa with 31 samples.

Results

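The comparison set 48 h of storage under the condition labelled HOPE against the 0 h biopsy of the same hearts. It comprised 6 libraries of pig (Sus scrofa) myocardium, 3 at 48 h and 3 at 0 h, from pigs 2, 4 and 6. They were 6 of the 24 libraries of the storage experiment and of 31 in the whole study. Members were chosen by the sample titles alone, and the changes were described across the 14141 of 21313 listed genes whose mean normalised count over the 24 libraries was at least 10.

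The HOPE 48 h and HOPE 0 h biopsies were set beside HOPE biopsies at 12 and 24 h and beside hearts of pigs 1, 3 and 5 stored under the condition labelled SCS for 48 h and 0 h. The labels do not spell out either abbreviation; in heart preservation HOPE usually stands for hypothermic oxygenated perfusion and SCS for static cold storage. No drug, genetic change, age or sex is given for these groups. Although cardiomyocytes are entered as cell type, the libraries hold poly(A) RNA of whole myocardial biopsies, so vessels, connective tissue, leukocytes and residual blood were all measured together. Each pig gave 1 biopsy per time, and only RNA with an integrity number over 6 entered library preparation.

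A heart kept cold and perfused with oxygenated fluid lies outside the circulation, so the animal no longer replaces its blood cells. Resident cells continue a slowed metabolism. Myocardium holds resident macrophages as well as T cells, NK cells and monocytes that circulate or patrol the vessel wall. Chemokine receptors such as CX3CR1 and CCR2 mark subsets of these leukocytes and guide their adhesion and migration.

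The 6 libraries held 22583205 to 32876138 recovered reads. Defining markers of ventricular cardiomyocytes were abundant in all of them, with MYH7, the slow myosin heavy chain, at 689826, 697256 and 440162 normalised counts in HOPE 48 h libraries of pigs 2, 4 and 6, against 528134, 510289 and 179022 in their HOPE 0 h libraries. The 0 h library of pig 6 stood apart. It had the lowest MYH7 value and the lowest summed ventricular markers of the 6 (1281497 normalised counts), the highest summed endothelial markers (78729) and the highest summed T and NK cell markers (2825). List medians are therefore also given without that library. Values in each group are listed in the order pigs 2, 4 and 6, and fold changes are log2 of the normalised count plus 1, 48 h minus 0 h, ± SE, from 1 limma fit over all 24 libraries with the pig as a block.

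Few genes changed beyond the spread that remained over the 24 libraries once the pig was fitted as a block. In limma with Benjamini-Hochberg adjustment over 14141 genes, 1 gene passed an adjusted p of 0.05, CX3CR1, which was lower at 48 h (0.00707% of genes tested), and 0 genes passed as higher. At an unadjusted p under 0.05 there were 652 higher genes (4.61%) and 416 lower genes (2.94%), together 1068 (7.55%). edgeR also called 1 gene, CX3CR1, with an adjusted p of 0.0212, and DESeq2 called 54 (31 higher and 23 lower). The higher ones include ENSSSCG00000041980, fitted at 18.74 by DESeq2 from 0, 0.678 and 0.985 normalised counts at 48 h and 0 in each 0 h library. All 3 values at 48 h lay above all 3 values at 0 h in 315 genes (2.23%) and below them in 358 genes (2.53%). Of the 14141 genes, 7423 had a positive and 6718 a negative change. The change was positive in all 3 pigs in 2623 genes (18.5%) and negative in all 3 in 1947 genes (13.8%). Counts of signs in the gene lists below are to be read beside these values. The median change over all genes was 0.01. Against the same 0 h libraries, 0 genes passed at 12 h and 0 at 24 h in limma, with 559 (3.95%) and 1197 (8.46%) at an unadjusted p under 0.05, and DESeq2 called 3 and 29.

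CX3CR1, the receptor for the membrane-bound chemokine fractalkine on patrolling monocytes, resident macrophages and cytotoxic lymphocytes, fell in HOPE hearts. The gene lies on chromosome 13, from 23944386 to 23957567, in the RefSeq annotation of Sscrofa11.1. Its level was 57.3, 39.3 and 30.5 normalised counts at 48 h, against 120, 127 and 116 at 0 h. Every heart was lower at 48 h, and the highest 48 h value was far below the lowest 0 h value. Means were 42.4 ± 13.7 at 48 h and 121 ± 5.53 at 0 h (SD, n = 3 each). The fitted change was -1.54 ± 0.22 (limma, adjusted p = 0.0187), and -1.06, -1.66 and -1.89 within pigs 2, 4 and 6.

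The decline of CX3CR1 was spread over the storage period. Its level was 88.9, 90.9 and 59.7 normalised counts at 12 h and 79.3, 75.2 and 49.1 at 24 h, so that each heart was lower at each later time. The changes from 0 h were -0.62 at 12 h and -0.85 at 24 h, which share the 0 h libraries with the 48 h comparison, and neither passed. The call rested on the pairing and on all 3 hearts: the adjusted p was 1 without the pig block, 0.0899, 0.589 and 0.393 without pigs 2, 4 and 6, 0.124 in a fit of the 6 libraries alone and 0.05 with total-count scaling. It was also lost without the 0 h library of pig 4 (0.0677) or pig 6 (0.225) or the 48 h library of pig 4 (0.425) or pig 6 (0.166), while the change itself lay between -1.78 and -1.36 under every alternative. The ligand gene CX3CL1, expressed by endothelium, was at a mean of 218 normalised counts at 48 h and 235 at 0 h (-0.01 ± 0.38).

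The chemokine receptor genes CCR2 and CCR1 were also lower in all 3 hearts, without passing the adjusted test. CCR2, which draws classical monocytes out of the blood, was at 39.7, 63.8 and 38.4 normalised counts at 48 h, against 88.5, 129 and 84.2 at 0 h. Every 48 h value was below every 0 h value, and the change was of like size in the 3 hearts (-1.14, -1.0 and -1.11), with a fitted value that did not pass (-1.08 ± 0.39, limma, adjusted p = 0.543). CCR1 was at a mean of 16.5 at 48 h and 30.6 at 0 h (-0.88 ± 0.42), again with no overlap.

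Of 12 tested chemokine receptors, a list put together after the first results were seen, 11 had a negative change. In 4 (33.3%, against 2.53% of all genes) all 48 h values lay below all 0 h values. The median was -0.43 against 0.01 over all genes, and -0.60 without the 0 h library of pig 6. Among the ligands, CCL5, made mainly by T and NK cells, was at 97.7, 68.5 and 164 normalised counts at 48 h, against 146, 139 and 379 at 0 h. It was lower in each heart, although the groups overlapped through pig 6 (-0.93 ± 0.22, limma, adjusted p = 0.25). CCL4 was at -0.47 ± 0.29, CCL3L1 at -0.60 ± 0.49 and the monocyte attractant CCL2 at -0.24 ± 0.22.

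Markers of T and NK cells had negative changes throughout. Their median change was -0.89, and -0.52, -0.74 and -1.06 within pigs 2, 4 and 6, against 0.01 over all genes. At 12 and 24 h, against the same 0 h libraries, the list median was already -0.81 and -0.75. Of the 28 listed markers, 21 were tested, and 7 (CD28, CD8B, KLRB1, KLRD1, NCR1, FCRL3 and EOMES) were below the minimum level. All 21 had a negative change, 19 in all 3 hearts. Values did not overlap in 7 of them (33.3%, against 2.53% of all genes as lower). At an unadjusted p under 0.05 were 11 (52.4%, against 2.94% of all genes as lower). None passed the adjusted test. Without the 0 h library of pig 6 the median was -0.54, less far from 0 than the -0.60 of the chemokine receptors.

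Of the cytotoxic genes of this list, KLRK1, PRF1 and GNLY were below its median of -0.89, and NKG7 was above it. KLRK1, the activating receptor NKG2D, was at 17.6, 14.2 and 23.6 normalised counts at 48 h, against 47.3, 47.2 and 101 at 0 h. Every 48 h value was below every 0 h value (-1.70 ± 0.37, limma, adjusted p = 0.185). GNLY, which encodes the granule protein granulysin, was at 151, 97.7 and 157 normalised counts at 48 h, against 256, 204 and 589 at 0 h. Here too the groups did not overlap, with pig 6 highest at 0 h (-1.24 ± 0.28, limma, adjusted p = 0.218). Perforin (PRF1) was at -1.57 and the granule gene NKG7 at -0.69, both without overlap.

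T cell surface genes showed the same direction at low levels. CD2, an adhesion receptor of T and NK cells, was at 22, 30.5 and 38.4 normalised counts at 48 h, against 51.1, 71.3 and 127 at 0 h, with no overlap (-1.36 ± 0.32, limma, adjusted p = 0.24). CD8A was at -1.45, CD3D at -1.06, CD6 at -0.83 and CD3E at -0.70, while CD4 was at -0.17 and IL2RB at -0.04. The summed level of the T and NK cell list was 1137, 678 and 1467 normalised counts at 48 h, against 1479, 1070 and 2825 at 0 h, lower within each heart. At 12 h this sum was 1058, 673 and 1367. In such biopsies, fewer cells of a type and less RNA per cell cannot be told apart.

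**Figure D1:**
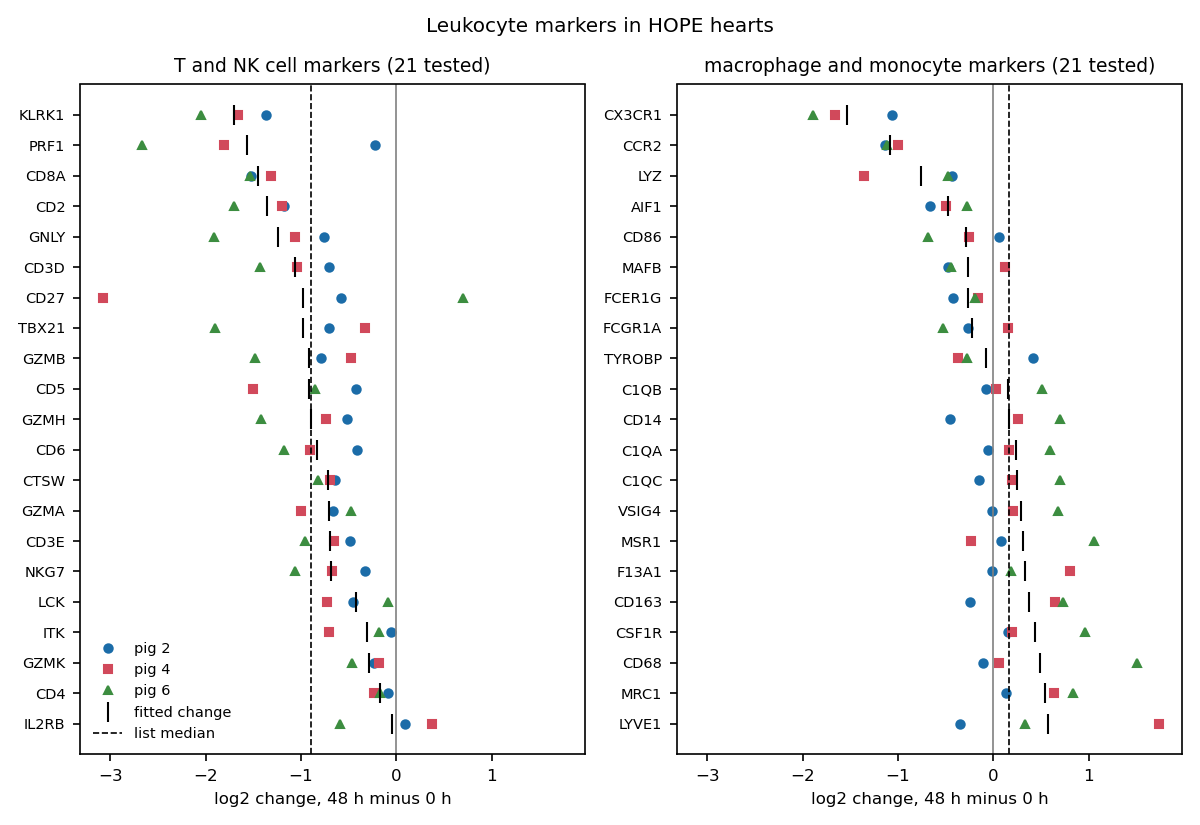
Log2 change from 0 h to 48 h of HOPE for each tested T and NK cell marker (left) and each macrophage and monocyte marker (right). Coloured points are the 3 pigs, black ticks the fitted change and dashed lines the list median, -0.89 on the left and 0.17 on the right; on the left nearly all points lie below 0, on the right the fitted changes of CX3CR1 (-1.54) and CCR2 (-1.08) are lowest, followed by LYZ (-0.76).

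Macrophage markers as a group did not share this direction. Of 21 tested, 12 had a positive and 9 a negative change, and the median was 0.17 (-0.15, 0.12 and 0.33 within pigs 2, 4 and 6), and 0.07 without the 0 h library of pig 6. CX3CR1 and CCR2 stood at the lower end together with LYZ, the lysozyme gene (-0.76), and AIF1, a cytoskeletal protein of activated macrophages (-0.48). At the other end, the mannose receptor MRC1 (0.54) and CSF1R, the receptor on which macrophage survival depends (0.44), had all 48 h values above all 0 h values. The complement genes C1QA, C1QB and C1QC were at 0.24, 0.15 and 0.25. Summed macrophage markers were 10764, 12349 and 15114 normalised counts at 48 h, against 11451, 10622 and 10490 at 0 h, higher in pigs 4 and 6 and lower in pig 2.

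Of 16 tested genes of leukocyte adhesion, 12 had a negative change, 4 in all 3 hearts. Lower at an unadjusted p under 0.05 were 2 (12.5%, against 2.94% of all genes). The list median was -0.14, and 0.02 without the 0 h library of pig 6. ITGA4, the integrin chain with which lymphocytes and monocytes bind VCAM1, was at 23.5, 40.7 and 45.3 normalised counts at 48 h, against 57.2, 67.1 and 102 at 0 h (-1.04 ± 0.28). RGS18, PRKCB and RASSF5 were named for their small p among lower genes without overlap, and SPN after its values were seen, so they form no list. RGS18, a regulator of G protein signalling in haematopoietic cells, was at 25.7, 21 and 50.2 at 48 h, against 80.8, 54.5 and 82.6 at 0 h (-1.22 ± 0.28). PRKCB, a protein kinase C of lymphocytes and myeloid cells, was at 55.1, 28.5 and 32.5 at 48 h, against 89.2, 80.7 and 89.1 at 0 h (-1.19 ± 0.28). In all 3 genes the groups did not overlap, and none passed (limma, adjusted p = 0.336, 0.218 and 0.228 in this order). RASSF5, an activator of integrin adhesion in lymphocytes, was at -0.90, and SPN, the leukocyte sialoglycoprotein CD43, at -1.24 (limma, adjusted p = 0.0769). Neutrophil markers could not be followed, since none of the 6 listed ones reached the minimum and S100A8 and S100A12 were at or near 0 throughout.

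Genes induced by interferon were lower in most cases. Of 35 tested, 34 had a negative change, 21 in all 3 hearts. Lower at an unadjusted p under 0.05 were 10 (28.6%, against 2.94% of all genes). The list median was -0.36 (-0.20, -0.24 and -0.65 within pigs 2, 4 and 6) and -0.26 without the 0 h library of pig 6. At 12 and 24 h, against the same 0 h libraries, it was -0.40 and -0.35. CXCL10, which attracts activated T cells, was at 273, 263 and 410 normalised counts at 48 h, against 390, 730 and 789 at 0 h. It was lower within each heart, with a small overlap between pigs (-0.98 ± 0.25, limma, adjusted p = 0.288).

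IRF1, a transcription factor of the interferon response, was at 369, 468 and 379 normalised counts at 48 h, against 486, 554 and 555 at 0 h, without overlap (-0.40 ± 0.14). ISG15, a ubiquitin-like protein, was at -0.64, the guanylate-binding protein GBP1 at -0.56 and IFIT2 at -0.76. Antigen presentation genes had a median of -0.20, with 14 of 15 negative, and -0.12 without the 0 h library of pig 6. T and NK cell markers were lower in the same libraries, and their part in the interferon values was not tested.

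ID1 and ID3, inhibitors of basic helix-loop-helix transcription factors and direct targets of bone morphogenetic protein signalling, were lower in all 3 hearts, and ID1 had the smallest p after CX3CR1. ID1 was at 460, 722 and 546 normalised counts at 48 h, against 808, 1305 and 1086 at 0 h. All 48 h values were below all 0 h values, and the change was of like size in each heart (-0.81, -0.85 and -0.99). The fitted change was -0.88 ± 0.14 (limma, adjusted p = 0.0528). ID1 lies on chromosome 17, from 35316518 to 35317742 (Sscrofa11.1, RefSeq).

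ID3 was at 912, 1179 and 1397 normalised counts at 48 h, against 1341, 2048 and 3123 at 0 h. It was lower within each heart, while the groups overlapped (-0.84 ± 0.18, limma, adjusted p = 0.185). ID2 was at -0.50 without overlap and the Notch target HES1 at -0.47. Of 18 tested targets of bone morphogenetic protein and SMAD signalling, a list compiled after the first results were seen, 15 had a negative change and the median was -0.15, and -0.08 without the 0 h library of pig 6. RBPJ, the DNA-binding partner of Notch, was at 372, 334 and 428 normalised counts at 48 h, against 645, 482 and 712 at 0 h, without overlap (-0.68 ± 0.14, limma, adjusted p = 0.154). NRARP, a target and inhibitor of Notch signalling, was at 24.2, 20.3 and 17.7 at 48 h, against 38.9, 59.7 and 55.9 at 0 h (-1.26 ± 0.32).

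Endothelial markers gave no common direction beside these values. Of 19 tested, 15 had a negative change, 0 had an unadjusted p under 0.05, and the medians within pigs 2, 4 and 6 were 0.04, 0.24 and -0.58. The median over the list was -0.14, and 0.10 without the 0 h library of pig 6. Their summed level was 34037, 32067 and 52942 normalised counts at 48 h, against 33532, 25886 and 78729 at 0 h. Genes that respond to flow in endothelium had a median of -0.21, and -0.05 without the 0 h library of pig 6. Of 21 tested, 3 were lower in all hearts, a share near the 13.8% of all genes. GPR182, an atypical chemokine receptor of endothelium, was at 58.8, 84.1 and 68.9 at 48 h, against 124, 108 and 134 at 0 h (-0.79 ± 0.22, limma, adjusted p = 0.374).

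Immediate early genes, which are transcribed within minutes of a stimulus, had no common direction. Their median was 0.03 over 28 tested genes, and -0.09 without the 0 h library of pig 6. At an unadjusted p under 0.05, 3 were higher (10.7%, against 4.61% of all genes) and 0 lower (against 2.94%). JUNB, a subunit of the AP-1 transcription factor, was at 446, 460 and 515 normalised counts at 48 h, against 234, 332 and 231 at 0 h. Every 48 h value was above every 0 h value (0.85 ± 0.16, limma, adjusted p = 0.138). At 12 h JUNB was still at 244, 239 and 335, a change of 0.04, and between 12 and 48 h the difference was 0.81 ± 0.16.

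EGR1, a zinc finger factor of the same response, was at 641, 1026 and 751 normalised counts at 48 h, against 230, 479 and 344 at 0 h. These did not overlap (1.23 ± 0.31, limma, adjusted p = 0.285). IER2 was at 0.44 and FOS at 0.73, higher in all 3 hearts. In contrast, NR4A3, a nuclear receptor of this class, was at -0.91, and the ERK phosphatase gene DUSP5 was at 11.8, 16.3 and 10.8 at 48 h, against 32, 23.1 and 20.2 at 0 h (-0.90 ± 0.44).

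**Figure D2:**
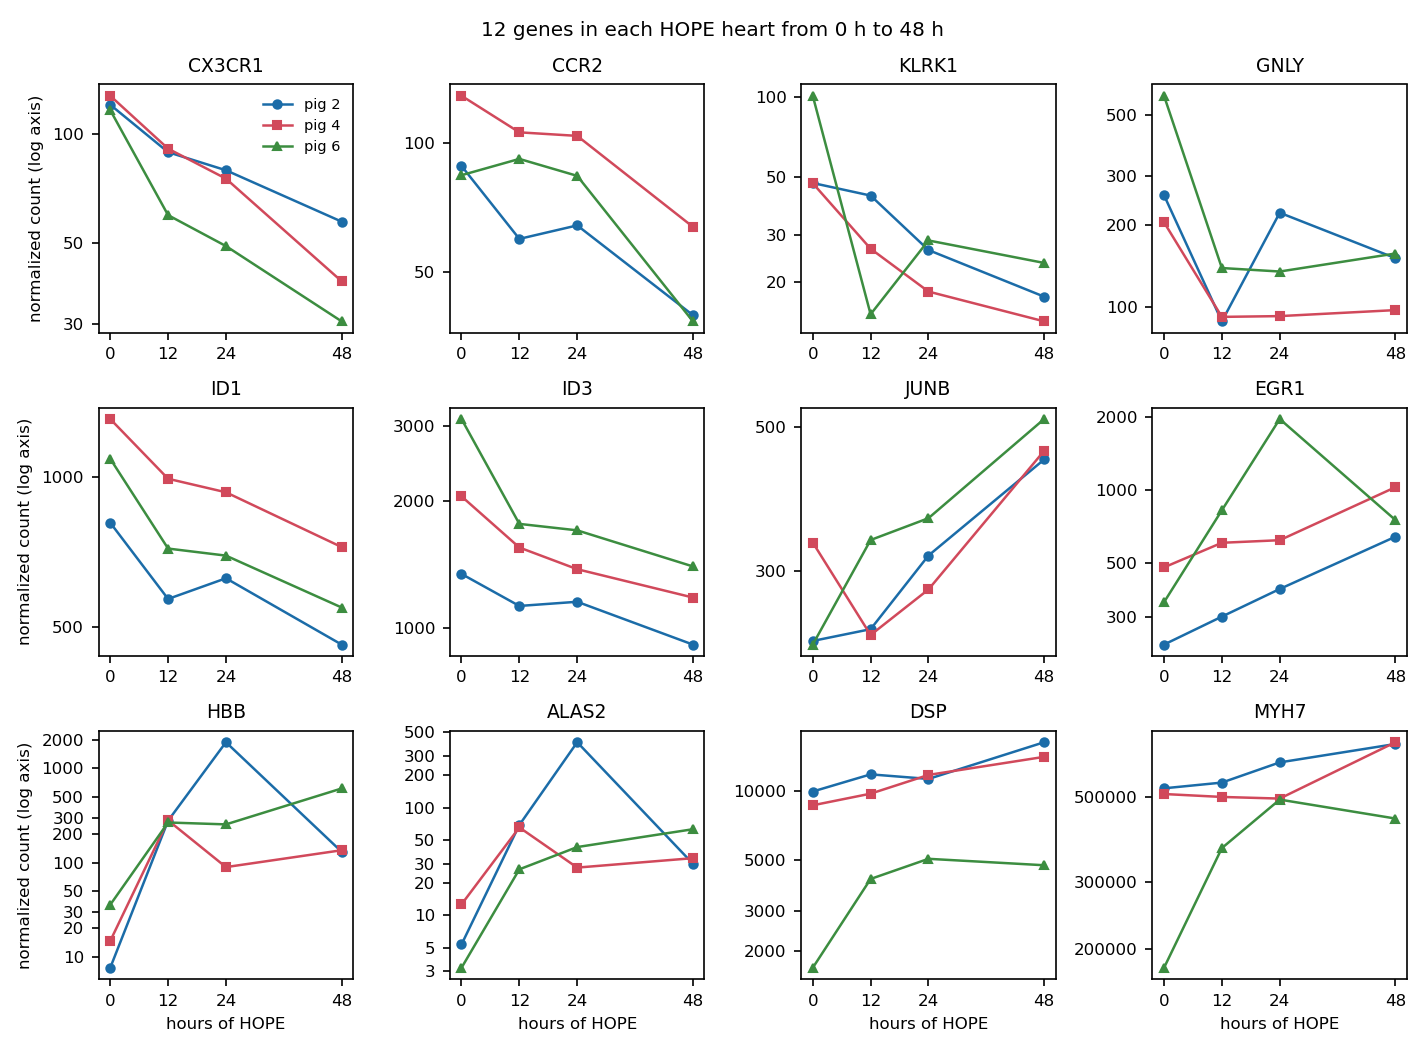
Normalised counts (log axis) of 12 genes in the HOPE hearts of pigs 2, 4 and 6 at 0, 12, 24 and 48 h, 1 line per pig. CX3CR1 declined at each step in each heart, JUNB was highest at 48 h in each heart, and HBB and ALAS2 were already higher at 12 h than at 0 h.

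HBB and ALAS2, transcripts of red blood cells, were higher at 48 h in each heart. HBB, the beta chain of haemoglobin, was at 130, 135 and 611 normalised counts at 48 h, against 7.63, 14.7 and 35.6 at 0 h. Each 48 h value exceeded each 0 h value, and the change of 3.70 ± 0.74 had an adjusted p of 0.154 in limma. ALAS2, the first enzyme of haem synthesis in erythroid cells, was at 30.1, 33.9 and 63 normalised counts at 48 h, against 5.34, 12.6 and 3.24 at 0 h, again without overlap (2.53 ± 0.85, limma, adjusted p = 0.495). In the fit of the 6 libraries alone HBB was the 1 gene called, with an adjusted p of 0.0018.

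Both genes were already higher at 12 h than at 0 h in each heart. HBB was at 278, 280 and 266 normalised counts at 12 h and at 1892, 89.4 and 254 at 24 h, and ALAS2 at 69, 65.5 and 26.7 at 12 h. The highest values of both were those of pig 2 at 24 h. Of the 9 listed erythroid markers, 4 were tested. SPTB, the beta spectrin that heart muscle also expresses, was at 0.77 and the membrane protein gene EPB42 at 0.18. AHSP, SLC4A1, HBM and GATA1 were among those below the minimum, with at most 13.8 normalised counts at 48 h and 11.5 at 0 h.

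Genes of the intercalated disc and the membrane skeleton of cardiomyocytes were higher at 48 h in most hearts. This list of 30 tested genes was also put together after the first results were seen. Of its members 28 had a positive change, 22 in all 3 hearts. Higher at an unadjusted p under 0.05 were 14 (46.7%, against 4.61% of all genes). The median was 0.30 and of like size in each pig (0.33, 0.37 and 0.32), and 0.28 without the 0 h library of pig 6. None passed the adjusted test.

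DSP, which encodes desmoplakin and anchors desmosomes to intermediate filaments, was at 16394, 14149 and 4748 normalised counts at 48 h, against 9978, 8685 and 1690 at 0 h. The levels of pig 6 were far below those of the other pigs at both times, so the groups overlapped, but each heart was higher at 48 h (0.97 ± 0.20, limma, adjusted p = 0.154). ANK1, an ankyrin that ties spectrin to membrane proteins, was at 613, 619 and 183 at 48 h, against 357, 390 and 51 at 0 h (1.09 ± 0.25, limma, adjusted p = 0.21). SPTB was at 3718, 3272 and 1227 at 48 h, against 2356, 1828 and 704 at 0 h. Further members were ANK2 at 0.46, ANK3 at 0.53, the desmosomal plakophilin PKP2 at 0.54, talin 2 (TLN2) at 0.48, filamin C (FLNC) at 0.61 and plectin (PLEC) at 0.52.

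Sarcomere genes were higher on balance, mostly in pig 6. Of 31 tested, 25 had a positive change. At an unadjusted p under 0.05, 8 were higher (25.8%, against 4.61% of all genes) and none lower. The median was 0.21 (0.12, 0.06 and 0.50 within pigs 2, 4 and 6), and 0.04 without the 0 h library of pig 6. MYH6, the fast cardiac myosin heavy chain, was at 28411, 56442 and 7675 normalised counts at 48 h, against 23033, 31997 and 1767 at 0 h (1.08 ± 0.28, limma, adjusted p = 0.303). MYOM1, an M-band protein, was at 0.60 and the Z-disc gene ACTN2 at 0.62.

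Among 33 tested genes of calcium handling and ion channels, 25 had a positive change, 15 in all 3 hearts, with a median of 0.19 and 0.09 without the 0 h library of pig 6. ATP2A2, the calcium pump of the sarcoplasmic reticulum, was at 80917, 87784 and 29372 normalised counts at 48 h, against 61017, 52187 and 17543 at 0 h (0.63 ± 0.20, limma, adjusted p = 0.455). CACNA1C, the L-type calcium channel, was at 0.56, RYR2, the calcium release channel, at 0.70 and SLC8A1, the sodium-calcium exchanger, at 0.45. MYH7 itself was at 0.71 ± 0.30, and 0.35 without the 0 h library of pig 6. Summed ventricular markers were 1829398, 1961995 and 1839331 normalised counts at 48 h, against 1610217, 1887514 and 1281497 at 0 h, and the part of cardiomyocyte content in these values was not tested.

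Genes of oxidative fuel use were likewise higher in most members. Of 22 tested tricarboxylic acid cycle genes, 20 had a positive change, 15 in all 3 hearts. Of 30 genes of fatty acid uptake and oxidation 24 had one, 20 in all 3 hearts. Over all genes 18.5% were higher in all 3 hearts. Medians were 0.33 and 0.34, in pig 6 alone 0.68 and 0.72, and each 0.12 without the 0 h library of pig 6. IDH3A, a subunit of NAD-dependent isocitrate dehydrogenase, was at 4448, 4127 and 878 normalised counts at 48 h, against 3516, 2990 and 360 at 0 h. Each heart was higher at 48 h, and the groups overlapped because pig 6 was low at both times (0.70 ± 0.20, limma, adjusted p = 0.374).

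PDHA1, the E1 subunit of pyruvate dehydrogenase, was at 0.58, DLST at 0.59, the fatty acid transporter SLC27A1 at 0.44 and ACSL1, which activates long-chain fatty acids, at 0.52. LIPE, hormone-sensitive lipase, was at 721, 853 and 558 normalised counts at 48 h, against 550, 502 and 285 at 0 h, without overlap (0.71 ± 0.18, limma, adjusted p = 0.285). Glycolysis genes had a median of 0.20, with -0.09 in pig 4 and 0.63 in pig 6, and -0.00 without the 0 h library of pig 6. Nuclear-encoded respiratory chain genes had a median of -0.07, and -0.15 without the 0 h library of pig 6, with 0 of 67 at an unadjusted p under 0.05.

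Of the 13 mitochondrially encoded genes, 12 had a negative change, 8 in all 3 hearts, and 0 had an unadjusted p under 0.05. They took 31.8%, 29.0% and 31.5% of normalised counts at 48 h, against 33.2%, 34.6% and 39.5% at 0 h. The shares did not overlap, and their median change was -0.26 (-0.02, -0.37 and -0.35 within pigs 2, 4 and 6), and -0.14 without the 0 h library of pig 6. ND3, a subunit of complex I, was at the lower end with -0.43 ± 0.28, and ND4L at the upper end with 0.03 ± 0.29. Of 66 cytosolic ribosomal protein genes 65 had a negative change, 37 in all 3 hearts. Their median was -0.18, and -0.19 without the 0 h library of pig 6. Lower at an unadjusted p under 0.05 were 7 (10.6%, against 2.94% of all genes).

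Most collagens and matrix proteins were at higher levels at 48 h. Of 29 tested, 27 had a positive change, 17 in all 3 hearts. In 7 (24.1%, against 2.23% of all genes) all 48 h values lay above all 0 h values. The median was 0.32 (0.19, 0.36 and 0.41 within pigs 2, 4 and 6), and 0.20 without the 0 h library of pig 6. LAMC1, the gamma chain of laminins in the basement membrane, was at 15765, 13036 and 9276 normalised counts at 48 h, against 11587, 8203 and 7773 at 0 h. Each heart was higher, with overlap between pigs (0.46 ± 0.13, limma, adjusted p = 0.389).

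COL4A2, a chain of basement membrane collagen, was at 16348, 14507 and 14845 normalised counts at 48 h, against 11658, 9460 and 14491 at 0 h, without overlap though nearly equal within pig 6 (0.38 ± 0.16). LAMB1 was at 0.51 (0.33, 0.94 and 0.27 within pigs 2, 4 and 6) and the fibrillin gene FBN1 at 0.60 (0.25, 1.09 and 0.45), so that pig 4 stood highest in both. Of the other chains, COL6A3 was at 0.35 and COL6A2 at 0.49, while the fibrillar chains COL1A1 and COL3A1 were at 0.21 and 0.30. The list medians at 12 and 24 h were 0.09 and 0.05. Fibroblast markers had a median of 0.21, and 0.05 without the 0 h library of pig 6; several of them are also matrix genes.

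Lists for stress responses had medians on both sides of 0. The median was -0.03 over 24 hypoxia-inducible genes, -0.01 over 23 genes of the unfolded protein response, -0.04 over 25 p53 targets and cell death genes and 0.02 over 26 antioxidant genes. Without the 0 h library of pig 6 these were -0.02, -0.11, 0.02 and -0.05 in this order. It was 0.15 over 23 heat shock chaperones, 0.16 over 26 genes of autophagy and FOXO signalling and -0.12 over 11 genes of osmotic stress, and without that library -0.00, 0.07 and -0.01. SOD2, the mitochondrial superoxide dismutase, was at 0.54 and higher in each heart. Of the cold-induced RNA-binding proteins, RBM3 was at 1287, 1286 and 1517 normalised counts at 48 h, against 1253, 1875 and 2069 at 0 h (-0.32 ± 0.14), and CIRBP at -0.01 ± 0.11. TP53INP1, a p53 target that also acts in autophagy, was at 713, 379 and 504 at 48 h, against 891, 545 and 1231 at 0 h (-0.71 ± 0.19, limma, adjusted p = 0.342).

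The natriuretic peptide genes, induced by wall stretch, did not change in 1 direction over the hearts. NPPA was at 611, 144 and 1279 normalised counts at 48 h, against 2080, 3679 and 417 at 0 h. NPPB was at 380, 49.5 and 210 at 48 h, against 656, 255 and 148 at 0 h. Both were lower at 48 h in pigs 2 and 4 and higher in pig 6, with fitted changes of -1.60 ± 1.06 and -0.88 ± 1.09 that turned to 0.15 and 0.60 without the 0 h library of pig 4. MYL4, an atrial light chain, showed the same split over the hearts, at 126, 61 and 228 at 48 h, against 442, 1994 and 61.5 at 0 h.

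The remaining genes with no overlap and the smallest p had fitted changes of moderate size. MYH14, a non-muscle myosin heavy chain, was at 4964, 5298 and 3301 normalised counts at 48 h, against 3232, 3126 and 1615 at 0 h (0.80 ± 0.19, limma, adjusted p = 0.262). GAA, the lysosomal enzyme that breaks down glycogen, was at 1375, 1538 and 1179 at 48 h, against 1062, 1089 and 426 at 0 h (0.78 ± 0.22). LPP, a protein of cell adhesions, was at 206, 104 and 66 at 48 h, against 58.7, 48.2 and 26.7 at 0 h (1.39 ± 0.40). Separate 48 h and 0 h values, and with them 1 direction in every heart, were conditions for naming these genes.

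The splicing helicase SNRNP200 was at 0.51, the nuclear pore gene NUP214 at 0.51, the alanyl-tRNA synthetase AARS1 at 0.51, the ubiquitin-activating enzyme UBA1 at 0.40 and VIPAS39, a gene of endosomal trafficking, at 0.46. PLAGL2, a zinc finger transcription factor, was lower at -0.84. SESN3, a sestrin under FOXO control, was at 120, 163 and 174 normalised counts at 48 h, against 213, 220 and 240 at 0 h, without overlap (-0.57 ± 0.19). The clock repressor NR1D1 was at 375, 207 and 261 at 48 h, against 284, 133 and 127 at 0 h, higher in each heart (0.69 ± 0.19, limma, adjusted p = 0.374).

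**Figure D3:**
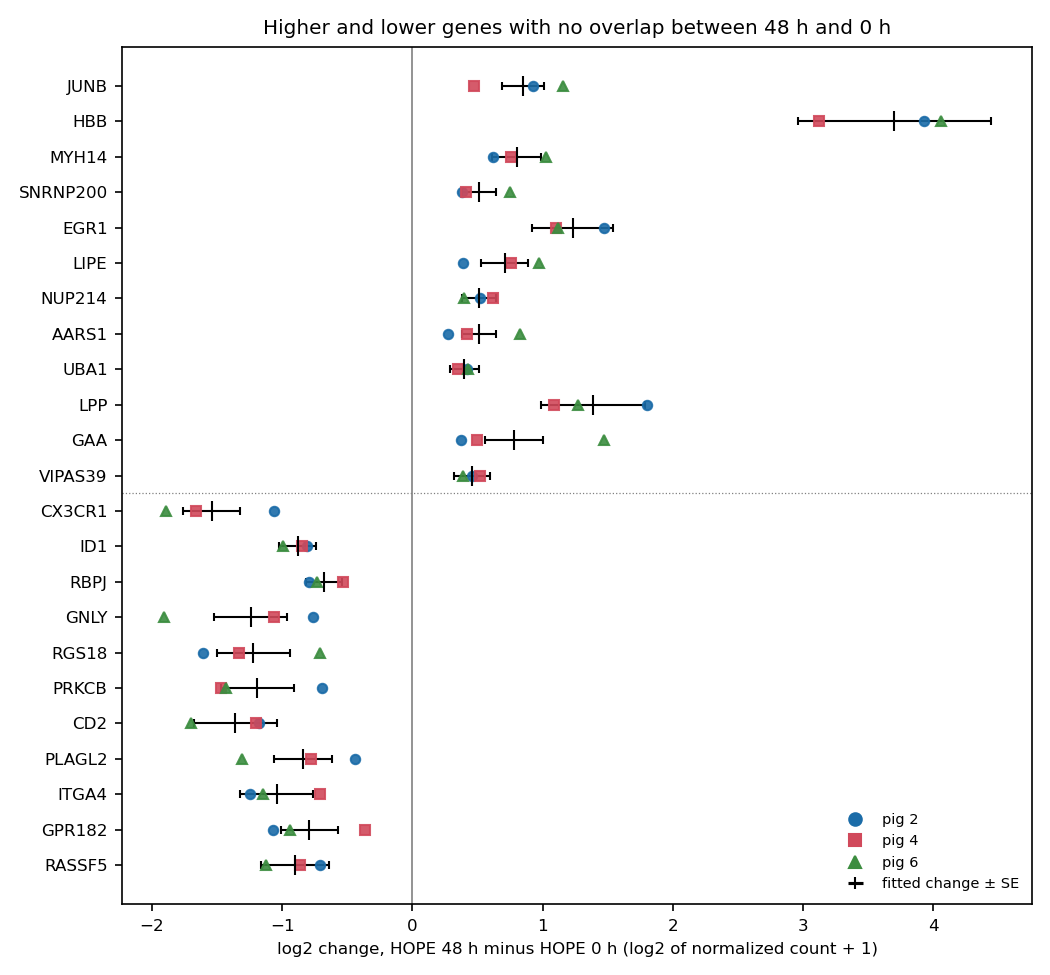
Log2 change, HOPE 48 h minus HOPE 0 h, of higher and lower genes with the smallest p among genes with no overlap between times. Coloured points are pigs 2, 4 and 6 and black ticks with bars the fitted change ± SE. By the choice of genes all 3 points lie on 1 side of 0 for each gene. HBB at 3.70 is farthest to the right and CX3CR1 at -1.54 farthest to the left.

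**Figure D4:**
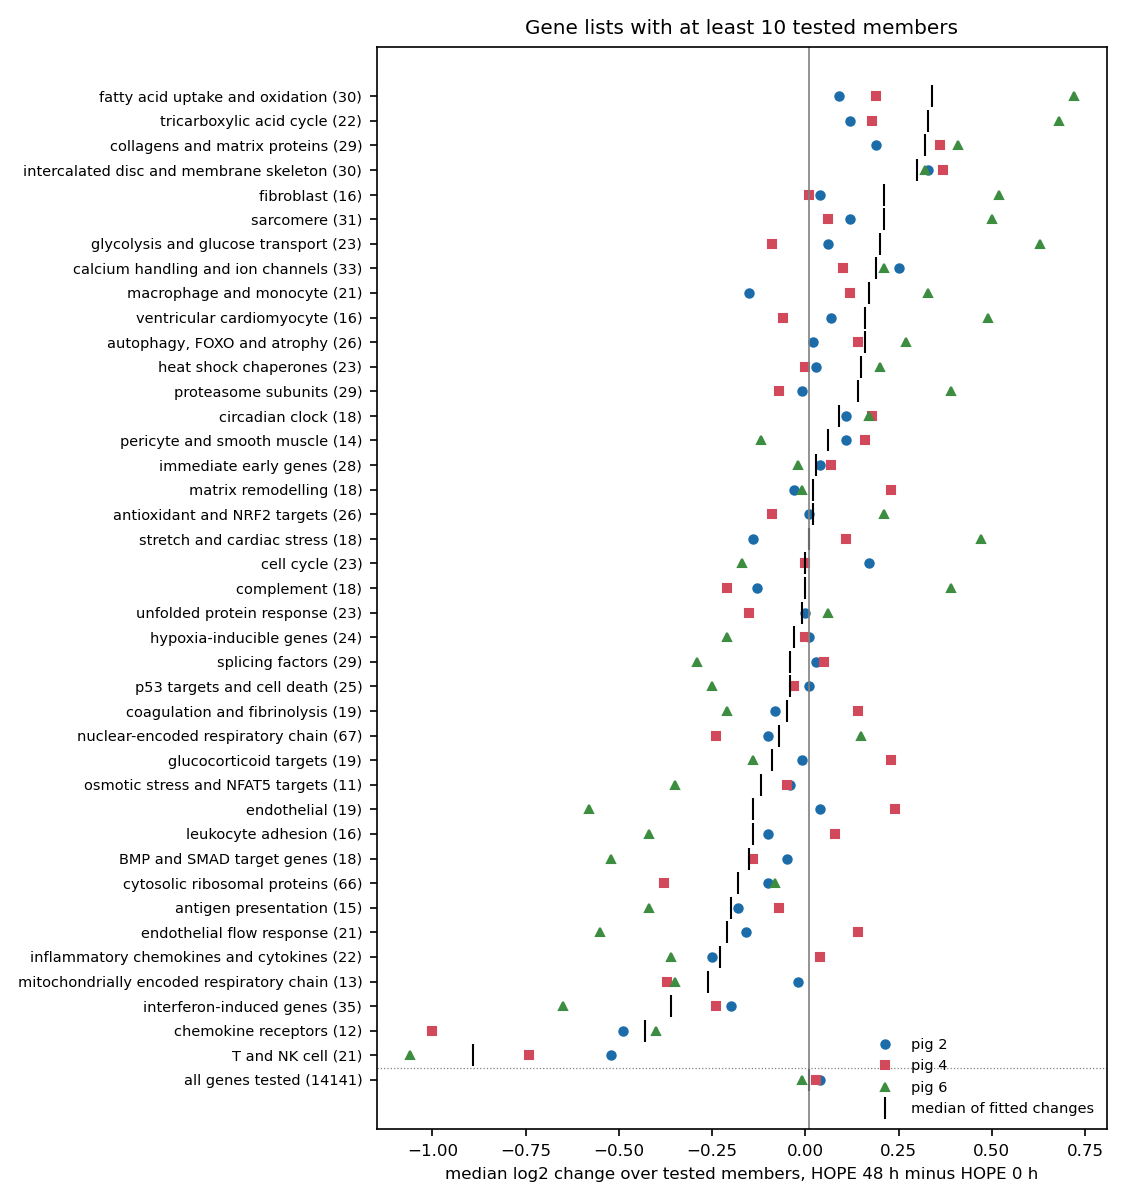
Median log2 change over the tested members of each gene list with at least 10 of them (number in brackets), as fitted (black ticks) and within pigs 2, 4 and 6 (points), with all 14141 genes in the bottom row. T and NK cell markers at -0.89 are lowest in the fit of all libraries; fatty acid genes at 0.34 are highest, but there pig 6 lies far from pigs 2 and 4.

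Fitting the 12 HOPE libraries alone, with the pig as a block, gave 12 calls, 8 higher (0.0566%) and 4 lower (0.0283%) at an adjusted p under 0.05 in limma. All 12 had 1 sign in all 3 hearts, and 5 did not overlap between 48 h and 0 h. Among the lower genes were ID1 (adjusted p = 0.0196), CX3CR1 (0.0292) and ID3 (0.0367). Among the higher ones were MYPN, the sarcomeric protein myopalladin, at 2716, 2623 and 514 normalised counts at 48 h, against 1566, 1296 and 224 at 0 h (1.00, limma, adjusted p = 0.0292), and LPP (0.0367).

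The other named genes called higher in that fit were SPTB (0.77), ALPK3, a kinase-like protein of cardiomyocytes (0.80), the protocadherin PCDH7 (0.96) and the cadherin-related gene FAT1 (0.74). ALPK3 was at 3850, 3719 and 1776 normalised counts at 48 h, against 2497, 1976 and 984 at 0 h. Each heart was higher, and pig 6 at 48 h lay below pigs 2 and 4 at 0 h. A further 2 of the called genes carry no symbol, ENSSSCG00000033894 at 1.12 and ENSSSCG00000048752 at 2.28.

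Over the same 48 h in SCS hearts, 153 genes were called higher (1.08%) and 155 lower (1.1%) in limma, together 308 (2.18%). Whether a gene changed differently in HOPE and SCS was tested with the difference of the 2 changes. It passed for 18 genes (0.127%), 3 with a positive (0.0212%) and 15 with a negative difference (0.106%), of 1964 (13.9%) at an unadjusted p under 0.05. ID1 was 1 of them. Its change was -0.88 ± 0.14 in HOPE hearts and 0.17 ± 0.14 in SCS hearts, a difference of -1.05 ± 0.20 (limma, adjusted p = 0.0483).

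In SCS libraries of pigs 1, 3 and 5 ID1 was at 256, 1014 and 3260 normalised counts at 48 h, against 298, 963 and 2091 at 0 h, so that SCS hearts differed widely in level and the increase was in pigs 3 and 5. Without the SCS 48 h library of pig 5, in which mitochondrially encoded genes took 82.4% of counts, the difference for ID1 was -0.82 with an adjusted p of 0.085, and 0 genes passed in limma, with 1789 at an unadjusted p under 0.05. With total-count scaling the difference for ID1 was -0.06 (adjusted p = 0.871), and the median difference of all genes was 1.03. For CCR2, the change was -1.08 ± 0.39 in HOPE hearts and -1.73 ± 0.39 in SCS hearts, where it passed (adjusted p = 0.0351), and the difference of 0.65 ± 0.56 did not pass (limma, adjusted p = 0.636). For CX3CR1 the changes were -1.54 in HOPE and -0.47 in SCS, and the difference of -1.07 ± 0.31 did not pass (limma, adjusted p = 0.141). Differences for JUNB (0.83, adjusted p = 0.121), DSP (1.14, 0.0812), GNLY (-1.65, 0.0801), KLRK1 (-1.56, 0.193) and HBB (3.21, 0.188) did not pass in limma either.

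The other named genes with a difference were called in SCS and not in HOPE hearts. EZR, which links the plasma membrane to actin, was at 0.46 ± 0.13 in HOPE and -0.72 ± 0.13 in SCS hearts. RPL37, a protein of the large ribosomal subunit, was at -0.34 ± 0.14 in HOPE and 0.78 ± 0.14 in SCS hearts, and TIMP1, an inhibitor of matrix metalloproteinases, at -0.25 ± 0.15 in HOPE and 0.97 ± 0.15 in SCS hearts. The list medians over 48 h were -0.89 in HOPE and -0.35 in SCS for T and NK cell markers, 0.32 and 0.05 in the same order for matrix genes, and -0.36 and -0.42 for interferon-induced genes. Within SCS pigs 1, 3 and 5 the T and NK cell medians were -0.94, -0.35 and 0.00. Matrix genes were at -0.46, 0.47 and 0.10 and interferon-induced genes at -1.24, -0.15 and 0.15, with no common direction over the SCS hearts.

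**Figure D5:**
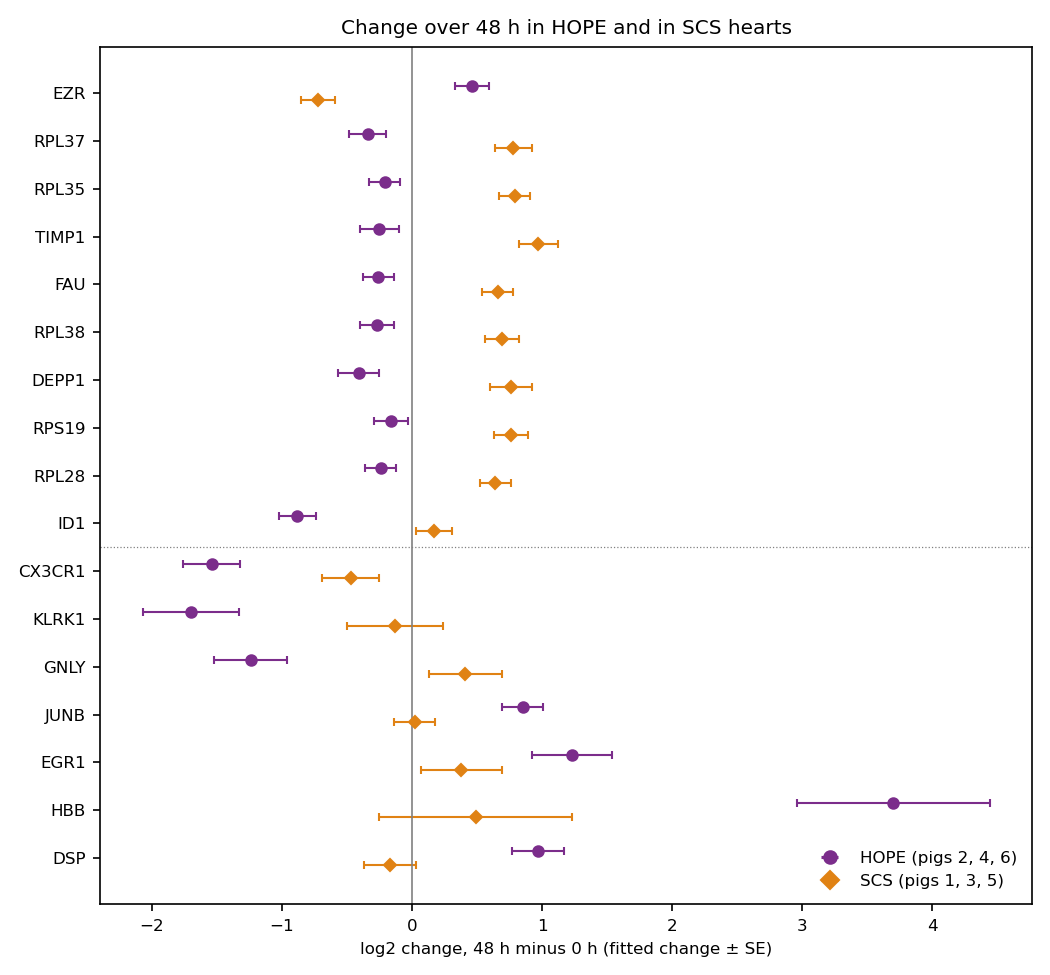
Fitted log2 change over 48 h (± SE) in HOPE hearts (circles, pigs 2, 4 and 6) and SCS hearts (diamonds, pigs 1, 3 and 5). Above the dotted line are the named genes whose changes differed at an adjusted p under 0.05, below it genes described for HOPE whose differences did not pass; ID1 is at -0.88 in HOPE and 0.17 in SCS.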

How the data were processed

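Myocardial biopsies of 6 pigs at 0, 12, 24 and 48 h of storage gave 24 libraries, made with a stranded poly(A) kit and sequenced as read pairs, per the labels' protocols. The deposited signal values are normalized counts: as the file headers and values show, the authors scaled each library's gene counts by a single size factor. Because 100% of values proved whole multiples of 1 step (tolerance 1e-06), the reads behind them could be rebuilt, 19722065 to 35099406 per library. They served the count tests named here as alternatives; the depth limits the precision of genes near the minimum. The submitters' processing notes name the Sscrofa11.1 build, the aligners STAR 2.5.2b and HISAT2 2.2.1, the counters Subread 1.5.2 and featureCounts 2.0.6, and DESeq2, Trimmomatic 0.36, bcl2fastq 2.17 and FastQC; which of them served these libraries and whether strand was used in counting are not given in the sources used here. A further 18 columns of the experiment labelled NMP, for which 7 samples are listed, were not analysed here.

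log2(normalized count + 1) was fitted with limma 3.58.1 in R 4.3.3 (lmFit, contrasts, eBayes with a mean trend) over all 24 libraries with the pig as a fixed block (12 residual degrees of freedom). This scale understates the change of low genes. The test covered genes whose mean reached 10, and p-values were adjusted by Benjamini-Hochberg within a comparison at 0.05. Pigs were the replicates. The fit was tested on simulated data. The titles give the pig of each biopsy, and deviations from the group means of 0 h and 48 h libraries of 1 HOPE pig correlated at r of 0.588, 0.456 and 0.637. Alternatives were edgeR 4.0.16 and DESeq2 1.42.0 on the recovered reads, other scalings, filters, pseudocounts and blocks, the 12 HOPE or the 6 compared libraries alone, and fits without each pig or library. Whether changes relate to gene length was not tested. By symbol, 79.8% of tested genes had a span in the RefSeq table.

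The comparison, gene lists and named genes were chosen with earlier results of these data known. Named were each gene that passed, the 12 higher and 12 lower genes with the smallest p among genes with a symbol, a mean of at least 50 and no overlap between 48 h and 0 h, up to 4 members of each list with the smallest p, and a preset group (HBB, ALAS2, CX3CR1, KLRK1, MYH7, NPPA, NPPB and the mitochondrially encoded genes). Further list members, SPN, NRARP and the genes called in the HOPE libraries alone were named after their values were seen. Lists are described by counts and medians without a test; 3 pairs could not give a two-sided exact p below 0.25. A few genes that these rules select are not reported here. Gene symbols came from the deposited table and positions from RefSeq (Sscrofa11.1).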

Additional observations from a re-analysis of the deposited data

Results flagged for a closer look

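The change over 48 h differed between HOPE and SCS hearts in 10 genes with a symbol, by the test of the difference itself in limma at an adjusted p under 0.05. The difference, HOPE minus SCS on the log2 scale, was 1.18 for EZR, -1.12 for RPL37, -1.0 for RPL35, -1.22 for TIMP1, -0.92 for FAU, -0.96 for RPL38, -1.17 for DEPP1, -0.92 for RPS19, -0.88 for RPL28 and -1.05 for ID1. A further 8 genes without a symbol passed as well. DEPP1, a FOXO target, was at -0.41 ± 0.16 in HOPE and 0.76 ± 0.16 in SCS hearts. In 9 of the 10 the change passed in SCS hearts and not in HOPE hearts; ID1 passed in neither. None of the 18 passed without the SCS 48 h library of pig 5.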

How the results depend on the processing

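For 48 h against 0 h of HOPE, where 1 gene was called, DESeq2 called 54, the fit with no replicate block 0, the pig as a random term 3, a minimum mean of 50 2, no filter 2, the 12 HOPE libraries alone 12 and, chosen after seeing the data, the fit without the SCS 48 h library of pig 5 4; leaving out 1 pig or library gave 0 to 1. With total-count scaling or the 6 compared libraries alone 1 gene was called, but not CX3CR1. At 12 h against 0 h, DESeq2 called 3 genes and total-count scaling 1, against 0; at 24 h they called 29 and 1, and leaving out a pig gave 0 to 1; at 48 h against 12 h DESeq2 called 1. For SCS, with 308 calls, DESeq2 called 770, edgeR 173, no block 0, the random term 145 and total-count scaling 11301, and leaving out a pig gave 0 to 597. For HOPE minus SCS, with 18, DESeq2 called 304, edgeR 9, no block 0, the random term 0, TMM 9, no filter 5, quantile normalization 47 and total-count scaling 7972, and leaving out a pig or library gave 0 to 259. Total-count scaling put the median change of all genes at 0.03 in HOPE, -0.99 in SCS and 1.03 in the difference, where ID1 was then at -0.06. The causes were not tested.

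Of 923 values of 42 genes under 22 alternatives, 872 kept their direction and side of the threshold. CX3CR1 lost its call in 10 and reversed in 0. Reversed were NPPA (0.15) and NPPB (0.60) without the 0 h library of pig 4 (-3.26 to 0.15 and -2.33 to 0.60 over all omissions), COX1 (0.00), COX3 (0.04) and ND5 (0.25) under quantile normalization, ND4L (-0.02, -0.03, -0.06 and -0.08) without pig 2 or 1 of 4 libraries (up to 0.17), and ND5 (0.04, 0.05 and 0.09, down to -0.17) without pig 4, pig 6 or 1 of 2 libraries. Of 1122 list medians 26 moved by more than the spread between pigs. Genes with near-identical copies (globins, myosin heavy chains, ribosomal proteins, histocompatibility genes) may share reads. At a mean near 10, 1 library's counting error is large.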
